A study of Mus musculus with 4 samples.

Results

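Gatm, Ass1, Asl, Arg2, Oat, Odc1, Azin1, Sat1 and Agmat were chosen by name as the genes of creatine, arginine, ornithine and polyamine metabolism, 9 of the 32285 genes listed for every section, and all 9 passed the filter on low counts over whole sections. They were measured by Visium spatial transcriptomics, which captures polyadenylated RNA of a tissue section on spots with known barcodes and counts each molecule once by its unique molecular identifier (UMI). The 4 sections analysed here, each 10 µm thick, came from left kidneys of male wild-type C57BL/6J mice aged 7 to 8 weeks. Normal sections 1 and 2 came from control kidneys. Ischemic sections 1 and 2 came from kidneys taken 24 h after both renal pedicles had been clamped for 30 min and released. The study used 2 Visium slides, and which slide held each section is not given here. The sources used here do not tie sections to mice, and the study made technical replicates of each mouse. Tests between conditions thus compared sections, and their p-values measure only the spread between sections, which may be technical. Tests between zones compared zones within sections, and their p-values measure the spread of zone differences over sections, which may be technical too.

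The kidney is a main site where arginine is made from citrulline, and it does so in the proximal tubule through argininosuccinate synthase (Ass1) and argininosuccinate lyase (Asl). Glycine amidinotransferase (Gatm) then uses arginine and glycine to make guanidinoacetate, which the liver methylates to creatine. Arginase splits arginine into urea and ornithine, ornithine aminotransferase (Oat) passes ornithine toward glutamate and proline, and ornithine decarboxylase (Odc1) turns it into putrescine, the first polyamine.

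Promoter sequences from RefSeq (GRCm38.p6, table of gene starts) were found for 6 of the 9 genes: Gatm, Ass1, Odc1, Sat1, Agmat and Oat. Each was searched on both strands, over the 250 bases before the start, for the CCAAT box motif CCAAT, for the GC box motif GGGCGG and for the E-box motif CACGTG, and matches of different motifs shared no base. Printed here are the stretches of these windows that lie outside the GENCODE gene, for Gatm, which fell in every zone tested, for Oat, which was higher in ischemic sections, and for Odc1, whose change differed in direction between zones. Capitals mark the motif matches, so that ATTGG is a CCAAT box read on the other strand. Likewise CCGCCC is a GC box read on the other strand.
Gatm, chr2:122611304-122611527, minus strand: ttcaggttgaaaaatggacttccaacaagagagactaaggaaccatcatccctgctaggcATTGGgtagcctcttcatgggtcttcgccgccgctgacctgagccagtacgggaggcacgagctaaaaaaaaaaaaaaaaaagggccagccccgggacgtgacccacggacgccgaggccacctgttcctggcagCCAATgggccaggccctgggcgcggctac
Oat, chr7:132576399-132576648, minus strand: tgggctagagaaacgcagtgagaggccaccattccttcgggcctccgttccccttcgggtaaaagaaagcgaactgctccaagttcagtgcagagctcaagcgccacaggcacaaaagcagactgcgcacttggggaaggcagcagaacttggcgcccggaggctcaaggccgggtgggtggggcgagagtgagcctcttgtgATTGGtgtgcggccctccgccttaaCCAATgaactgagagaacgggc
Odc1, chr12:17544623-17544793, plus strand: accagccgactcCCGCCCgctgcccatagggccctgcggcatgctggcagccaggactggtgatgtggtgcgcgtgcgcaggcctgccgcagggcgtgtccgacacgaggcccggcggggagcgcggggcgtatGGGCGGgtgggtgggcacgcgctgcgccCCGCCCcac
Gatm and Oat each held 2 CCAAT matches and no GGGCGG, and their whole-section levels moved in opposite directions. Odc1 held 4 GGGCGG matches in the whole window, of which the capitals show those in the printed stretch. Ass1 held 1 CACGTG and 1 GGGCGG. Sat1 held 2 GGGCGG, and Agmat held 1 in each of its 2 overlapping windows. Of 32851 RefSeq promoter windows of the same length, 33.8% held CCAAT, 32.7% held GGGCGG and 6.02% held CACGTG. A match describes letters in the window and says nothing of a factor's binding.

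The sections held 25957128 to 44528078 UMIs over 2401 to 2682 tissue spots. Levels are given as CPM, the UMIs of a gene in proportion to all UMIs of the section or zone, scaled by TMM, a normalization that sets the bulk of genes level between libraries. Over whole sections its factors ran from 0.829 in normal section 1 to 1.10 in ischemic section 2. With library totals alone the median log2 change of all genes was 0.31 in place of 0.04. The genes called then numbered 5754 higher and 2828 lower in place of 4737 and 4542. Zone levels and their ratios were scaled over all 20 sums of a section and a zone. Those factors ran from 0.663 in the outer stripe of normal section 1 to 1.22 in the inner stripe of ischemic section 1. Tests within a zone used separate factors, from 0.7785 (normal section 1, inner stripe) to 1.135 (ischemic section 1, outer stripe). Havcr1 and Lcn2, the tubular injury markers, rose by 9.64 (SE 0.28) and 8.78 (SE 0.27) on the log2 scale. All 12 proximal tubule markers were lower in the ischemic sections, from a summed level of 13336 and 10734 CPM in the normal to 3318.5 and 3099.6 CPM in the ischemic sections, with a median log2 change of -2.02. Neutrophil markers rose in 5 of 5 tested, from sums of 1.71 and 2.17 to 162 and 161 CPM, with Ly6g too low to test. Macrophage markers rose in 1 and fell in 3 of 6, with sums of 156 and 178 CPM against 119 and 119. T cell markers fell in 4 of 4 tested, with sums of 9.65 and 15.97 against 2.03 and 2.34 CPM. Summed levels ran in the same order of sections at 289 and 305 against 335 and 369 CPM for endothelium, where 2 of 4 markers rose and 1 fell, and at 149.8 and 210 against 244 and 249.96 CPM for fibroblasts, where 3 of 4 rose and 1 fell. Fat and red blood cell markers fell in 4 of 4 each, with sums of 186 and 90.1 against 6.30 and 5.97 CPM for fat and of 8677 and 7257 against 554 and 1152 CPM for red blood cells. A spot holds several cells, so fewer cells of a type and less RNA per cell cannot be told apart in any level below. The part of these cell types in the changes of the 9 genes was not tested.

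Over whole sections, genes of creatine and arginine synthesis were strongly lower in ischemic kidneys and the mitochondrial arginase Arg2 was strongly higher, while values for Odc1, Oat, Azin1 and Sat1 lay much closer to 0. Of the 9 genes, 5 were lower (Gatm, Ass1, Asl, Agmat and Odc1), 2 were higher (Arg2 and Oat) and 2 did not pass the threshold (Azin1 and Sat1). Of all 15305 genes tested, 60.6% passed in either direction, 31% higher and 29.7% lower, so that 7 of 9 is near the share of all genes and the sizes and places of the changes are what is described here. The median log2 change of the 9 genes was -0.52, beside 0.04 for all genes.

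Gatm, the first enzyme of creatine synthesis, lies at chr2:122594467-122611303 (minus strand, GRCm38, GENCODE M21), and its promoter is the first of those printed above. Its level was 336 and 323 CPM in the normal sections and 32.9 and 25.7 CPM in the ischemic sections, which did not overlap. The log2 change was -3.49 (SE 0.15, edgeR adjusted p = 3.04e-07), 11.2-fold lower.

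Ass1 (chr2:31470207-31520672, plus strand), which joins citrulline and aspartate, stood at 802 and 792 CPM in the normal and at 84.5 and 87.2 CPM in the ischemic sections. This was a log2 change of -3.21 (SE 0.14, edgeR adjusted p = 3.01e-07). Asl (chr5:130011258-130029247, minus strand), the next step and the one that releases arginine, fell from 149 and 127 CPM to 43.1 and 42.8 CPM, with a log2 change of -1.69 (SE 0.12, edgeR adjusted p = 3.63e-06). No normal and ischemic section overlapped for either gene.

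Arg2 (chr12:79130777-79156301, plus strand) encodes the arginase of mitochondria. It was at 7.80 and 9.63 CPM in the normal and at 92.7 and 88.9 CPM in the ischemic sections. The rise was 3.39 on the log2 scale (SE 0.12, edgeR adjusted p = 1.5e-07), and it held in every alternative run, from 3.245 to 3.649. The gene overlaps Vti1b and the antisense gene Gm48780 on the other strand, and the sources used here do not give the strand setting of the counting.

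Oat (chr7:132557478-132576398, minus strand) was modestly higher after ischemia. Its values were 93.2 and 105 CPM in normal and 129 and 135 CPM in ischemic sections, a log2 change of 0.41 (SE 0.11, edgeR adjusted p = 0.0121). The call was lost without ischemic section 1 (adjusted p = 0.111) or ischemic section 2 (adjusted p = 0.182). Oat lies within the annotated span of Fgfr2 on the same strand, and reads shared with that gene were not separated here.

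Odc1 (chr12:17544794-17551505, plus strand; a small nucleolar RNA gene, Gm22748, lies within it) was at 473 and 398 CPM in the normal and at 295 and 313 CPM in the ischemic sections. The whole-section log2 change of -0.52 (SE 0.14, edgeR adjusted p = 0.0104) was small beside its changes within zones, which went in opposite directions as described below. It did not pass without ischemic section 1 (adjusted p = 0.254) or ischemic section 2 (adjusted p = 0.174).

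Azin1 (chr15:38487427-38519266, minus strand; the miRNA gene Mir6951 and the antisense gene Gm49077 overlap it) encodes antizyme inhibitor, which binds antizyme and so spares ornithine decarboxylase from degradation. Its sections did not overlap, at 65.2 and 55.2 CPM in normal and 70.6 and 72.1 CPM in ischemic kidneys, but the log2 change of 0.24 (SE 0.11, edgeR adjusted p = 0.0823) did not pass. With library totals alone it was 0.52 and passed, as it did without normal section 1 at 0.38. Sat1 (chrX:155213132-155216449, minus strand), which acetylates spermidine and spermine for export or breakdown, overlapped between groups, at 187 and 207 CPM in normal and 202 and 205 CPM in ischemic sections, with a log2 change of 0.04 (SE 0.12, edgeR adjusted p = 0.768).

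Agmat (chr4:141746672-141759263, plus strand), named for agmatinase, was sparse, with 101 and 58 UMIs in the normal and 12 and 5 UMIs in the ischemic sections. The corresponding levels were 2.74 and 2.10 CPM against 0.353 and 0.174 CPM, and the groups did not overlap. The log2 change was -3.15 (SE 0.37, edgeR adjusted p = 8.53e-05).

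**Figure D1:**
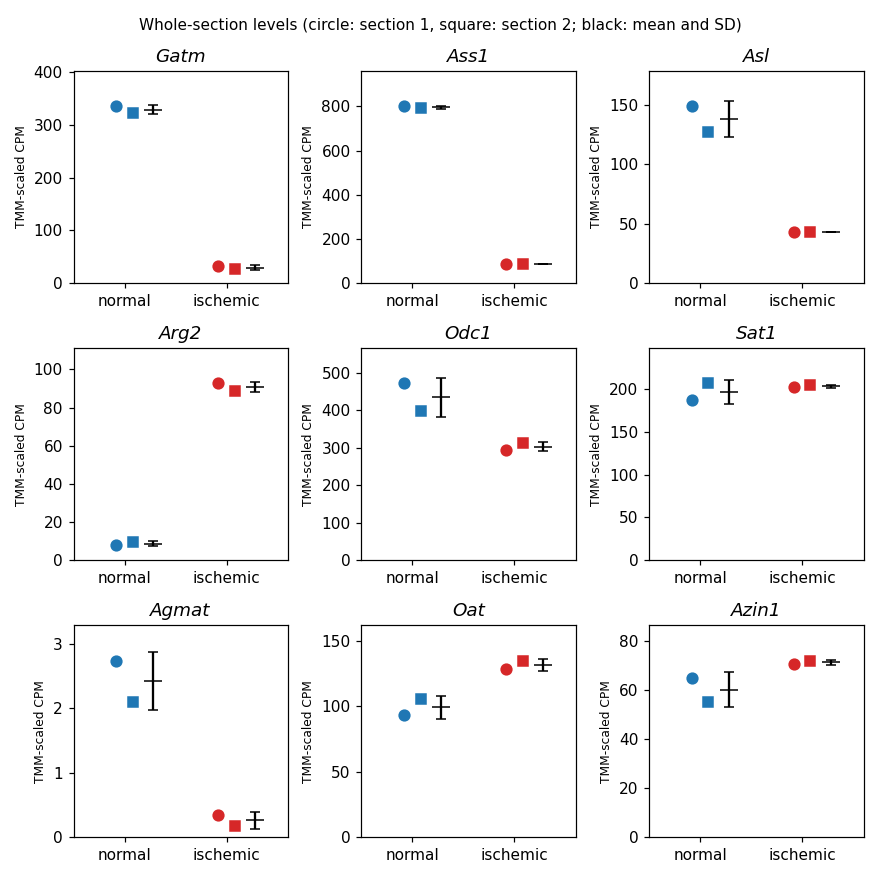
Whole-section levels of the 9 genes in TMM-scaled CPM (vertical axes from 0) in normal (blue) and ischemic (red) sections, with circles for section 1, squares for section 2, and black marks for the mean and SD of the 2 sections. Gatm, Ass1, Asl and Agmat sit far lower and Arg2 far higher in ischemic sections, while Sat1 overlaps between the groups.

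Spots were next assigned to 5 kidney zones from marker genes of each zone, none of them among the 9 genes, and UMIs were summed per section and zone. The cortex took 45.0% and 43.3% of spots in the normal and 39.7% and 36.5% in the ischemic sections, and the outer stripe of the outer medulla, where the straight proximal tubule lies, took 30.7% and 30.6% against 25.9% and 26.1%. The inner stripe, which holds the thick ascending limb, took 14.1% and 12.8% in the normal against 17.9% and 20.9% in the ischemic sections. The inner medulla took 5.12% and 8.35% against 12.2% and 11.5%, a larger share of the ischemic sections. The pelvis, with 106 to 135 spots a section, was described by levels alone. Scores were set within each section, and zones assigned from each spot alone matched in 57.8% to 84.6% of spots outside the pelvis and in 28.3% and 28.5% of the ischemic pelvis spots. Of the cortex markers, Slc34a1, Slc5a12 and Slc22a6 were themselves lower after ischemia, with whole-section log2 changes of -3.62, -2.61 and -0.53. Whether zone borders moved with injury was not tested, and no alternative outer stripe list was run. Spots called inner medulla in the normal sections also held 5546 and 3168 CPM of proximal tubule markers, 1383 and 164 CPM of fat markers and 41060 and 11539 CPM of red blood cell markers, so that values of that zone are not of inner medulla alone.

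**Figure D2:**
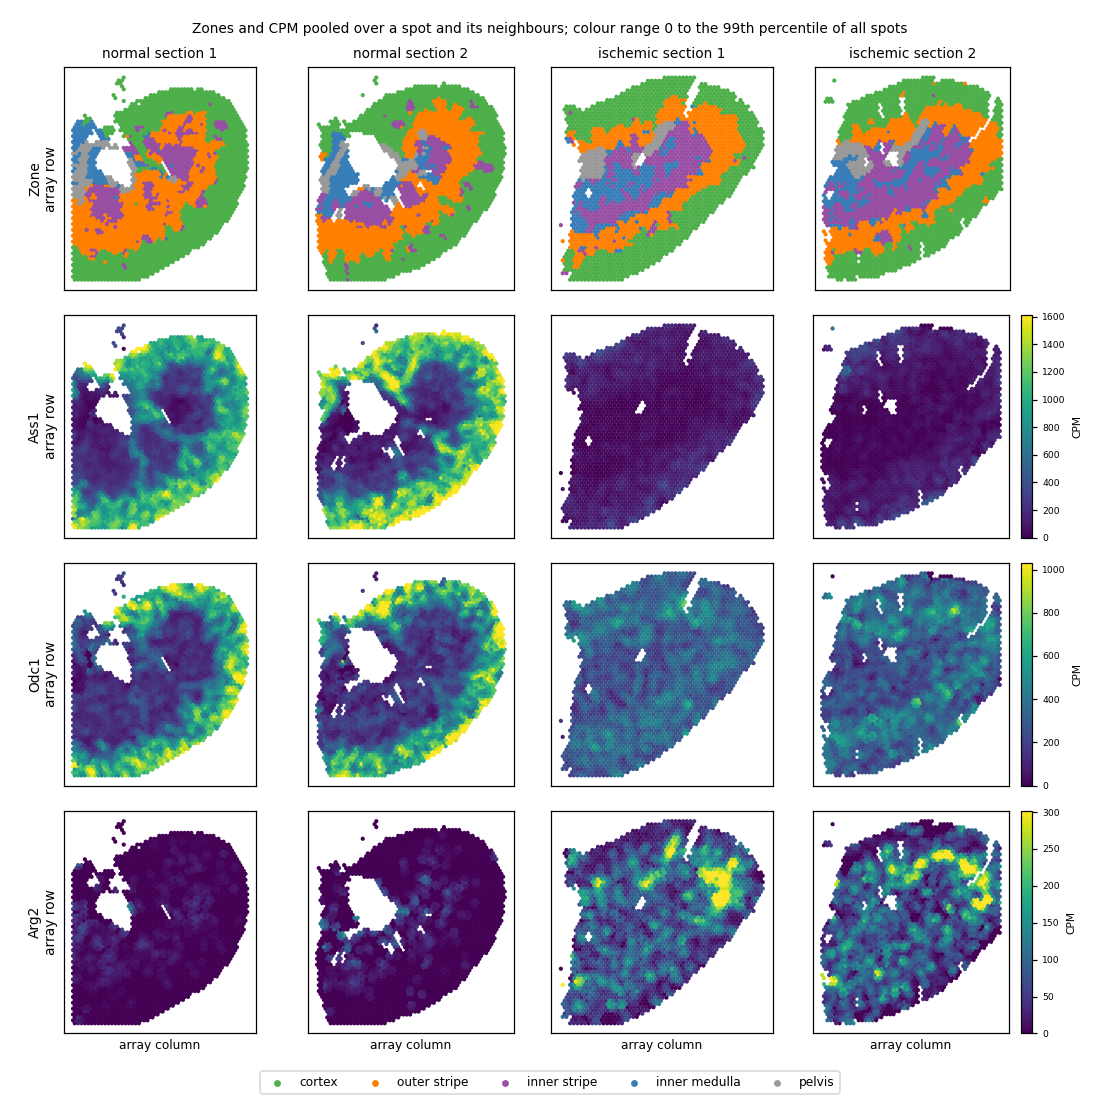
Maps of the 4 sections (array column against array row) with each spot coloured by its zone in the top row and, below, by the CPM of Ass1, Odc1 and Arg2 pooled over the spot and its neighbours, on 1 colour scale per gene from 0 to the 99th percentile of all spots. Ass1 and Odc1 trace the cortex in normal sections, and in ischemic sections Ass1 is low throughout, Odc1 is spread more evenly and Arg2 is highest in patches of the outer stripe.

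Gatm, Ass1 and Asl were lower and Arg2 was higher in the ischemic sections in each of the 4 zones tested, while Odc1, Oat, Azin1, Sat1 and Agmat depended on the zone. In the cortex 3 of the 9 genes rose and 5 fell, where 49.8% of 13547 genes tested passed, 25.7% higher and 24.1% lower. For the outer stripe the counts were 3 and 4, where 67.4% of 13305 passed, 34.5% higher and 32.9% lower. Agmat was too sparse to test in the inner stripe and inner medulla. Of the other 8 genes, 2 rose and 3 fell in the inner stripe, where 43.2% of 12543 genes passed, 20.2% higher and 23% lower. In the inner medulla 1 rose and 3 fell, where 27.4% of 11227 genes passed, 11% higher and 16.4% lower.

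In normal kidney Gatm belonged to the cortex, at 705 and 710 CPM, with 107 and 132 CPM in the outer stripe and 32.3 and 44.6 CPM in the inner stripe. Spots called inner medulla held 136 and 133 CPM, beside the proximal tubule markers given above. Of its UMIs, 88.1% and 83.6% lay in cortex spots. Ischemic levels were 76.7 and 67.5 CPM in cortex, 15.1 and 12.6 CPM in outer stripe, 5.96 and 4.37 CPM in inner stripe and 9.11 and 4.22 CPM in inner medulla, so the cortex still led while inner stripe and inner medulla overlapped. The log2 change was -3.27 (SE 0.12) in cortex, -3.06 (SE 0.13) in outer stripe, -2.84 (SE 0.26) in inner stripe and -4.30 (SE 0.32) in inner medulla, with edgeR adjusted p from 3.76e-15 to 0.000181. Within sections, the outer stripe stood at 0.151 and 0.186 of the cortex level in normal and at 0.197 and 0.187 in ischemic kidneys, a change of the log2 ratio of 0.20 (SE 0.18, edgeR adjusted p = 0.499).

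Ass1 was also highest in the cortex. Its normal levels were 1388 and 1463 CPM in cortex, 565 and 619 CPM in outer stripe and 326 and 299 CPM in inner stripe, so the outer stripe held 0.407 and 0.423 of the cortex level. After ischemia these were 149.6 and 165 CPM, 88.0 and 97.5 CPM, and 23.3 and 25.3 CPM. Every zone was lower, with log2 changes of -3.16 (SE 0.13) in cortex, -2.64 (SE 0.12) in outer stripe, -3.65 (SE 0.20) in inner stripe and -3.79 (SE 0.27) in inner medulla. The ratio of outer stripe to cortex rose to 0.588 and 0.590, a change in log2 of 0.50 (SE 0.18) that missed the threshold (edgeR adjusted p = 0.0585) and passed under 7 of 11 alternatives.

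Asl fell by 1.73 (SE 0.10) in cortex, from 262 and 233 CPM to 74.1 and 72.6 CPM. Outer stripe levels went from 95.6 and 93.2 CPM to 34.2 and 40.5 CPM, a log2 change of -1.31 (SE 0.10). It was -1.15 (SE 0.17) in the inner stripe and -1.295 (SE 0.21) in the inner medulla. Asl thus lost more in cortex than in outer stripe, by 0.40 (SE 0.13, edgeR adjusted p = 0.0362) on the log2 scale, a difference that did not pass without ischemic section 1 (adjusted p = 0.102), ischemic section 2 (adjusted p = 0.504) or the section term (adjusted p = 0.165), or with a podocyte and distal tubule cortex list (adjusted p = 0.0531).

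Proximal tubule markers, summed, fell over the same zones from 19897 and 16847 CPM to 7315 and 7519 CPM in cortex and from 13145 and 12388 CPM to 2272 and 2350 CPM in outer stripe. Their part in the falls of Gatm, Ass1 and Asl was not tested, and 3 of the 12 markers (Slc34a1, Slc5a12 and Slc22a6) also served to define the cortex.

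Arg2 had the opposite map. In normal kidney it was low in cortex, at 1.87 and 1.62 CPM (29 and 17 UMIs), and higher in outer stripe at 14.4 and 13.5 CPM, inner stripe at 12.7 and 10.7 CPM and pelvis at 30.5 and 44.6 CPM, where the pelvis sections lay above all other zones. In ischemic kidney the outer stripe led, at 173 and 158 CPM, followed by pelvis at 94.97 and 88.1 CPM, inner stripe at 75.5 and 75.7 CPM, inner medulla at 63.4 and 64.0 CPM and cortex at 61.6 and 61.0 CPM. Inner medulla and cortex lay within a few CPM of each other. The rise was 5.13 (SE 0.15, edgeR adjusted p = 1.04e-11) in cortex, 3.60 (SE 0.11, edgeR adjusted p = 2.42e-17) in outer stripe, 2.70 (SE 0.19) in inner stripe and 2.11 (SE 0.33) in inner medulla. The normal inner medulla sections differed, at 7.54 and 20.2 CPM (8 and 34 UMIs), and the rise there was 1.69 without normal section 1, 3.06 without normal section 2 and 3.37 with zones set from each spot alone.

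Cortex started lowest and rose most on the log2 scale. The outer stripe thus went from 7.67 and 8.36 times the cortex level of Arg2 in normal to 2.81 and 2.59 times in ischemic sections. This change of the log2 ratio was -1.54 (SE 0.26, edgeR adjusted p = 0.000524), and that of inner stripe against cortex was -2.44 (SE 0.29, edgeR adjusted p = 2.45e-05). The cortex held 10.1% and 6.39% of Arg2 UMIs in normal and 23.0% and 20.8% in ischemic sections. Neutrophil markers summed to 72.7 and 85.9 CPM in ischemic cortex and to 332 and 337 CPM in ischemic outer stripe, against at most 1.94 CPM in either zone of normal sections. Their part in the Arg2 rise was not tested.

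**Figure D3:**
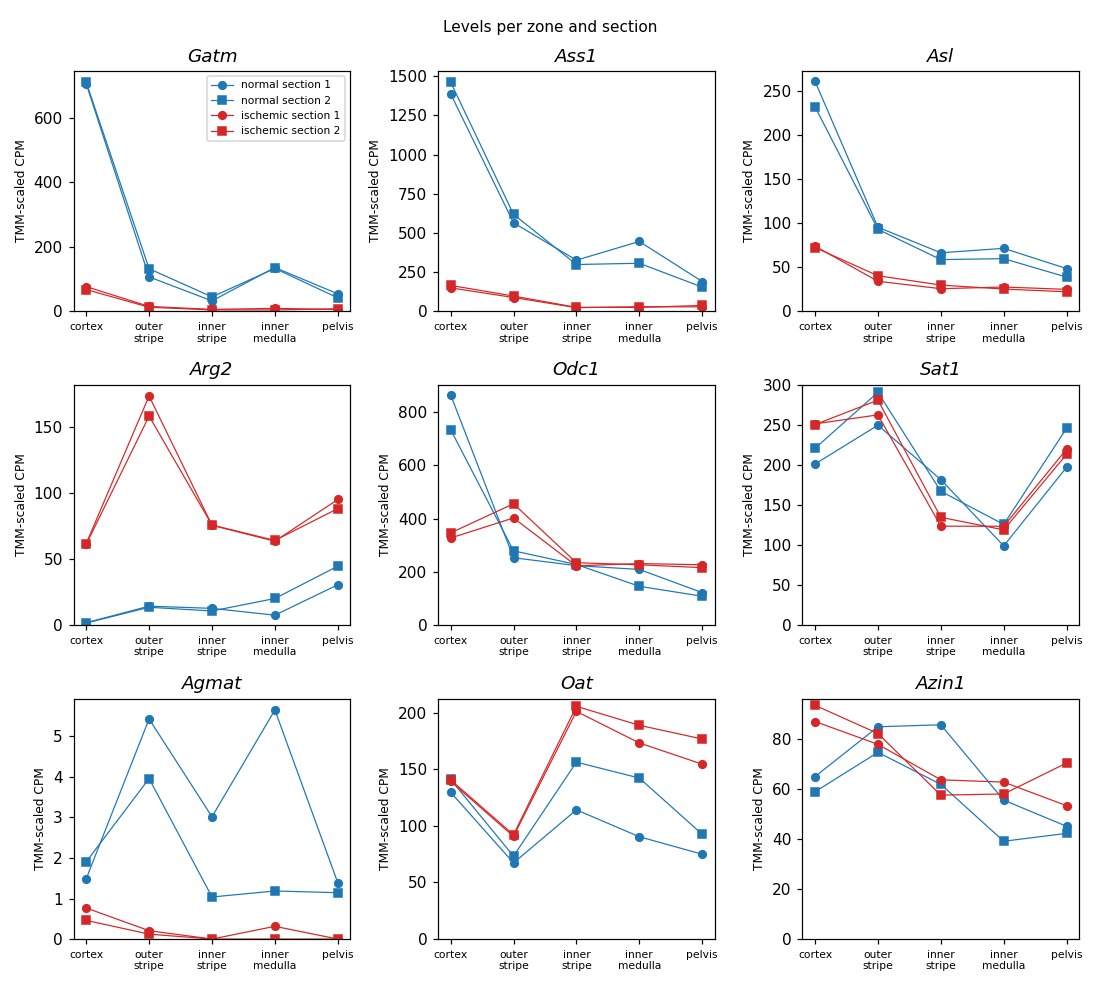
Levels of the 9 genes in TMM-scaled CPM (vertical axes from 0) in the 5 zones, from cortex to pelvis, with 1 line per section (blue normal, red ischemic, circles for section 1, squares for section 2). The lines of Odc1 cross between cortex and outer stripe, and those of Arg2 lie apart in every zone.

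Odc1 changed in opposite directions in neighbouring zones. Its normal map was cortical, at 865 and 734 CPM in cortex against 253 and 279 CPM in outer stripe and 223 and 228 CPM in inner stripe. In ischemic sections the cortex was at 327 and 346 CPM and the outer stripe at 402 and 456 CPM, so the outer stripe led in both. The cortex fell by 1.23 (SE 0.12, edgeR adjusted p = 8.34e-07), and the outer stripe rose by 0.72 (SE 0.11, edgeR adjusted p = 5.71e-06), on the log2 scale, and both held in every alternative run, from -1.36 to -1.02 in cortex and from 0.51 to 1.08 in outer stripe.

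The inner stripe of Odc1 showed no detectable change, at 223 and 228 CPM in normal and 223 and 234 CPM in ischemic sections, with a log2 change of 0.05 (SE 0.18, edgeR adjusted p = 0.848) whose sign depended on the size factors and on the zone rule. Ratios of outer stripe to cortex were 0.293 and 0.380 in normal sections against 1.23 and 1.32 after ischemia. The change of this log2 ratio was 1.93 (SE 0.17, edgeR adjusted p = 2.59e-06) and ran from 1.73 to 2.21 over the alternatives. Outer stripe against cortex differed by -1.58 (SE 0.12, edgeR adjusted p = 8.58e-08) in normal sections. Within ischemic sections it was 0.35 (SE 0.12, edgeR adjusted p = 0.0271), which did not pass without ischemic section 1 (adjusted p = 0.198), without ischemic section 2 (adjusted p = 0.431) or without the section term (adjusted p = 0.116). In the inner medulla Odc1 was at 209 and 146 CPM in normal sections against 231 and 227 CPM after ischemia and did not pass (log2 change 0.37, SE 0.23, edgeR adjusted p = 0.265). Pelvis spots, which were not tested, went from 122 and 109 CPM to 227 and 216 CPM. Cortex spots held 76.8% and 70.2% of Odc1 UMIs in normal and 38.4% and 33.5% in ischemic sections.

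**Figure D4:**
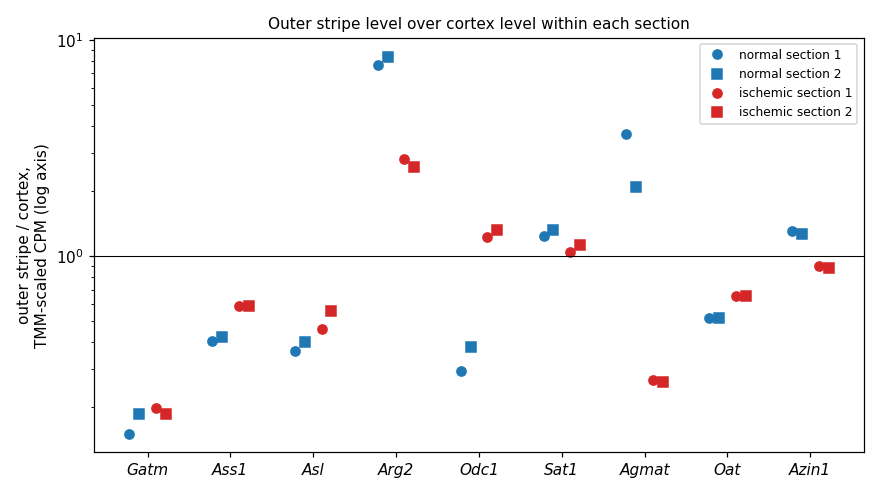
Level in the outer stripe divided by the level in the cortex of the same section (log axis, line at 1) for the 9 genes, in normal (blue) and ischemic (red) sections, with circles for section 1 and squares for section 2. Odc1 passes from below 1 in both normal sections to above 1 in both ischemic sections, Arg2 comes closer to 1, and the ischemic Agmat ratios rest on 3 outer stripe UMIs.

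Within normal sections all 9 genes differed between outer stripe and cortex, 4 higher in the outer stripe (Agmat, Arg2, Azin1 and Sat1) and 5 lower, where 22.9% of 14539 genes tested passed, 12.6% higher and 10.3% lower. Sat1 and Azin1 lost this call with library totals alone, without the section term and without either ischemic section, and Agmat without normal section 1, so that the count ran from 7 to 9 over the alternatives. In ischemic sections 6 did, 2 higher (Arg2 and Odc1) and 4 lower (Gatm, Ass1, Asl and Oat), where 36.1% passed, 17% higher and 19.1% lower. The ischemic change itself differed between outer stripe and cortex for 5 genes, where 21.2% of all genes passed, 7.96% upward and 13.2% downward. Relative to the cortex change, that of the outer stripe was more upward for Asl and Odc1 and more downward for Agmat, Arg2 and Azin1. Arg2 rose and Asl fell in both zones, each by less in the outer stripe on the log2 scale. Between inner stripe and cortex, 5 genes differed in normal sections, Arg2 higher in the inner stripe and Gatm, Ass1, Asl and Odc1 lower, where 29% passed, 14.1% higher and 14.9% lower. All 9 did in ischemic sections, Arg2 and Oat higher and the rest lower, where 49.2% passed, 22.8% higher and 26.4% lower. Of these, Agmat rests on 0 and 0 UMIs in the inner stripe beside 9 and 4 in cortex, and its call was lost with zones set from each spot alone (adjusted p = 0.123) and without either ischemic section. Arg2 and Odc1 also lost this inner stripe call in ischemic sections under 3 of 11 alternatives each. Azin1 and Oat lost it under 2 each. The ischemic change differed between inner stripe and cortex for 6 genes, where 18.3% passed, 4.85% upward and 13.4% downward. Relative to the cortex change, that of the inner stripe was more upward for Asl, Oat and Odc1 and more downward for Arg2, Azin1 and Sat1. Here too Arg2 rose and Asl fell in both zones, each by less in the inner stripe on the log2 scale.

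Agmat was higher in the outer stripe than in the cortex of normal kidney, with 56 and 31 UMIs there and 23 and 20 UMIs in the larger cortex, or 5.43 and 3.96 CPM against 1.48 and 1.90 CPM. This difference of 1.49 on the log2 scale (SE 0.37, edgeR adjusted p = 0.00892) did not pass without normal section 1, at 1.05 (adjusted p = 0.116). Only 2 and 1 UMIs remained in ischemic outer stripe, beside 9 and 4 in cortex. With both sections of a group pooled, the TMM-scaled CPM ratio of ischemic to normal was 0.0348 in outer stripe (95% exact interval 0.00704 to 0.105, counting error only). In cortex it was 0.385 (0.190 to 0.730). The outer stripe fell by 4.69 (SE 0.51, edgeR adjusted p = 4.13e-08) on the log2 scale. The cortical log2 change of -1.36 (SE 0.45, edgeR adjusted p = 0.0206) was lost under DESeq2 (adjusted p = 0.136), with library totals alone and without normal section 2, ischemic section 1 or ischemic section 2. In the inner stripe 14 and 3 UMIs in normal sections stood against 0 and 0 in ischemic sections.

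Oat was called higher in outer and inner stripe and not in cortex or inner medulla. Cortical levels overlapped, at 129.8 and 141 CPM in normal and 139 and 141 CPM in ischemic sections, with a log2 change of 0.07 (SE 0.10, edgeR adjusted p = 0.597). The outer stripe rose from 67.3 and 73.3 CPM to 90.8 and 92.2 CPM, by 0.42 (SE 0.10, edgeR adjusted p = 0.000568). Inner stripe levels were the highest of the ischemic zones, at 201 and 206 CPM against 114 and 156 CPM in normal sections, a log2 change of 0.62 (SE 0.20, edgeR adjusted p = 0.0337) that did not pass under DESeq2 (adjusted p = 0.0869), with its size factors, with a margin between zone scores or without either ischemic section. The inner medulla, at 90.4 and 142 CPM against 173 and 189 CPM, did not pass (log2 change 0.64, SE 0.24, edgeR adjusted p = 0.0842). Nor did the change of outer stripe against cortex, at 0.33 (SE 0.15, edgeR adjusted p = 0.133). In pelvis spots, which were not tested, Oat was at 75.0 and 92.6 CPM in normal sections against 155 and 177 CPM after ischemia. Inner stripe relative to cortex moved by 0.56 (SE 0.15, edgeR adjusted p = 0.0145), and this too was lost without ischemic section 1 (adjusted p = 0.211), ischemic section 2 (adjusted p = 0.199) or the section term (adjusted p = 0.175).

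Azin1, the antizyme inhibitor, rose in the cortex, from 65.0 and 58.9 CPM to 87.1 and 93.6 CPM, by 0.56 (SE 0.10, edgeR adjusted p = 0.000272), and this call held in every alternative. Cortex was thus the zone in which Azin1 rose and Odc1 fell. In outer stripe Azin1 overlapped between groups, at 85.0 and 74.7 CPM against 77.9 and 82.3 CPM, with a log2 change of 0.04 (SE 0.10, edgeR adjusted p = 0.736), which was 0.41 and passed with library totals alone. The outer stripe stood at 1.31 and 1.27 times the cortex level in normal and at 0.895 and 0.879 times in ischemic sections, a change of the log2 ratio of -0.54 (SE 0.13, edgeR adjusted p = 0.00977) that did not pass without ischemic section 1 (adjusted p = 0.321), ischemic section 2 (adjusted p = 0.248) or the section term (adjusted p = 0.116), or with library totals alone (adjusted p = 0.0569).

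Sat1, which feeds spermidine and spermine into breakdown, was only slightly lower in cortex than in outer stripe, with 201 and 221 CPM in normal cortex and 249.5 and 291 CPM in normal outer stripe. The cortex rose slightly, to 251 and 250.3 CPM, by 0.27 (SE 0.10, edgeR adjusted p = 0.043), a call lost under DESeq2 (adjusted p = 0.0973), with its size factors, with zones set from each spot alone and without normal section 1 or either ischemic section. In the outer stripe the groups overlapped, at 262 and 281 CPM after ischemia. Inner stripe levels were 182 and 167 CPM in normal and 124 and 135 CPM in ischemic sections, without overlap and without passing (log2 change -0.41, SE 0.18, edgeR adjusted p = 0.089).

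The other genes of these pathways were taken from a list of 47, of which 38 could be tested over whole sections and 15 were higher and 14 lower, beside 31% higher and 29.7% lower of all genes. The median log2 change of the 38 was -0.08. The 9 that could not be tested (Ckm, Ckmt2, Nos1, Nos2, Nags, Cps1, Otc, Slc25a2 and Oaz3) had at most 47 UMIs over all sections. Inducible nitric oxide synthase (Nos2) and Nags, Cps1 and Otc of the mitochondrial urea cycle were thus too sparse to assess here.

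Among creatine genes, 2 of 4 tested were lower and none higher. Gamt, which methylates guanidinoacetate to creatine, went from 43.8 and 32.0 CPM to 6.33 and 5.79 CPM, a log2 change of -2.65 (SE 0.16, edgeR adjusted p = 1.65e-06). Ckb, the brain-type creatine kinase, fell from 171 and 174 CPM to 79.0 and 79.8 CPM. The creatine transporter Slc6a8 did not pass, at 105 and 94.9 CPM against 90.5 and 86.5 CPM.

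For the arginine and urea cycle list, 5 of 10 tested were higher and 5 lower. Arg1, the cytosolic arginase, had 0 and 0 UMIs in the normal and 36 and 26 UMIs in the ischemic sections. With the normal sections together set at 3 UMIs, it was at least 26.2-fold higher by library totals alone, without TMM scaling. Slc7a1, a cationic amino acid transporter, rose from 3.33 and 3.84 CPM to 12.7 and 15.9 CPM, a log2 change of 2.00 (SE 0.16, edgeR adjusted p = 9.49e-06). The tubular transport subunits Slc3a1 and Slc7a7 fell, Slc3a1 from 452 and 329 CPM to 77.2 and 68.8 CPM and Slc7a7 from 93.1 and 83.9 CPM to 30.1 and 30.3 CPM.

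Polyamine genes were higher in 6 and lower in 3 of 15 tested. Smox, spermine oxidase, rose from 7.32 and 6.81 CPM to 33.9 and 36.0 CPM, a log2 change of 2.30 (SE 0.10, edgeR adjusted p = 3.45e-07). Amd2, a near-identical copy of the S-adenosylmethionine decarboxylase gene Amd1, went from 11 and 21 UMIs to 72 and 74 UMIs, and reads of the pair may have been split between them. The falls were led by Sat2, at 39.3 and 29.9 CPM against 7.59 and 6.11 CPM, and Oaz1, the antizyme that marks ornithine decarboxylase for degradation, at 1099 and 978 CPM against 621 and 606 CPM (log2 change -0.76, SE 0.15, edgeR adjusted p = 0.00192).

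On the ornithine, proline and glutamate list, 4 of 9 were higher and 4 lower. Aldh18a1 and Pycr1, which act in proline synthesis, rose, Aldh18a1 from 2.30 and 3.08 CPM to 10.4 and 9.74 CPM and Pycr1 from 5 and 6 UMIs to 39 and 54 UMIs. Pycrl, the gene now named Pycr3 and of the same reductase family as Pycr1, fell from 51.0 and 46.2 CPM to 31.3 and 28.8 CPM (log2 change -0.69, SE 0.10, edgeR adjusted p = 0.000305). Prodh and Aldh4a1, which act in proline breakdown, also fell, Prodh from 140 and 129 CPM to 52.0 and 50.1 CPM and Aldh4a1 from 310 and 251 CPM to 46.8 and 45.5 CPM. These log2 changes were 1.92 (SE 0.18) for Aldh18a1, 3.10 (SE 0.45) for Pycr1, -1.40 (SE 0.11) for Prodh and -2.60 (SE 0.14) for Aldh4a1, with edgeR adjusted p of at most 0.000311.

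**Figure D5:**
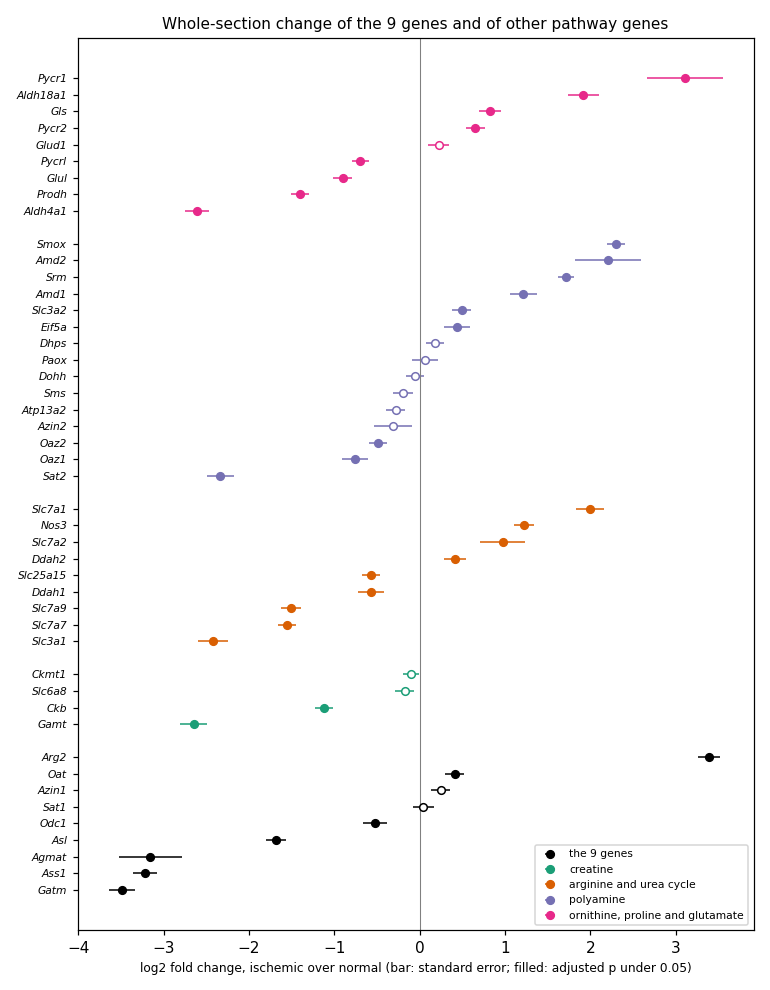
Whole-section log2 fold change of ischemic over normal sections (horizontal axis, bars for 1 standard error) for the 9 genes and the other tested pathway genes by list, with filled points for an edgeR adjusted p under 0.05 and Arg1 left out because its normal level was 0. Each list but creatine holds genes on both sides of 0, and among the 9 genes Gatm and Arg2 mark the extremes.

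Across the spots of a section, with CPM pooled over each spot and its neighbours, Gatm and Ass1 followed each other in normal sections 1 and 2 (Pearson r = 0.76 and 0.75, 2616 and 2682 spots) and less closely in ischemic sections (0.53 and 0.42, 2401 and 2613 spots). Odc1 followed Ass1 at 0.73 and 0.73 in normal and at 0.27 and 0.26 in ischemic sections. Arg2 ran against Odc1 in normal sections, at -0.45 and -0.41, and weakly with it in ischemic sections, at 0.17 and 0.22. Spots share their library, their zone and, through pooling, their neighbours, so these values describe maps and carry no test.

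Against the injury marker Havcr1 in ischemic sections, Odc1 stood at 0.49 and 0.42, Sat1 at 0.56 and 0.42, Ass1 at 0.54 and 0.56, Gatm at 0.32 and 0.32, Arg2 at 0.20 and 0.14 and Oat at -0.55 and -0.49. Within cortex spots alone these values were 0.16 and 0.34 for Odc1, 0.10 and 0.34 for Sat1, -0.37 and 0.03 for Ass1, -0.37 and -0.18 for Gatm, 0.47 and 0.40 for Arg2 and -0.23 and 0.01 for Oat. For the remaining genes, Asl went from 0.22 and 0.19 over whole ischemic sections to -0.33 and -0.04 in cortex. Agmat went from 0.04 and 0.06 to -0.03 and 0.02, and Azin1 from 0.045 and 0.17 to -0.06 and 0.23. Inside the cortex Gatm and Asl thus had the opposite sign in both sections. Ass1, Oat, Agmat and Azin1 had it in 1 section each. Odc1 and Sat1 were closer to 0, and Arg2 was farther from 0.

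Over the 20 sums of a section and a zone, the genes closest to each of the 9 were sought by Pearson correlation of log2(CPM + 1) among 12661 genes with at least 200 UMIs, which left out Agmat. The sums share sections and conditions, and these likenesses are descriptions. Gatm was closest to Cyp2d26 (r = 0.989), Prodh and Cela1. For Ass1 these were Miox (0.995), Slc34a1 and Gpx1, and for Asl Akr1a1 (0.980), Kl and Pi4ka. Arg2 was closest to S100a11 (0.969), Cp and Hnrnpa1, and Odc1 to Errfi1 (0.957), Nme2 and Wnk1. Sat1 was nearest to Chmp3 (0.911), Rap1a and Dpy30, Oat to Ripor1 (0.925), Nbea and Aif1l, and Azin1 to Gclm (0.897), Cd63 and Fth1.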

How the data were processed

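The authors sequenced the Visium libraries, ran Space Ranger 1.3.0 on build mm10 and deposited unnormalized UMI counts of each gene in each tissue spot, per the file headers and the labels. Depth was 25957128 to 44528078 UMIs a section. Coordinates are from GENCODE M21 (GRCm38). Groups came from the labels, and sections were the replicates, 2 a group.

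A spot received the zone whose markers, pooled over the spot and its neighbours and standardised within the section, scored highest. The lists were Slc5a2, Slc5a12, Slc34a1, Slc22a6, Slc22a8 and Slc12a3 (cortex), Slc7a13, Cyp7b1, Serpina1f, Slc22a13 and Atp11a (outer stripe), Slc12a1, Umod, Cldn10 and Ptger3 (inner stripe) and Slc14a2, Akr1b3, Cryab, Aqp2 and Fxyd4 (inner medulla). Pelvis spots held at least 10 urothelial counts and ranked in the top 5%.

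UMIs were summed per section, or per section and zone, and tested across all genes with edgeR 4.0.16 (R 4.3.3) by its quasi-likelihood test after TMM scaling and filterByExpr, at an adjusted p (Benjamini-Hochberg) under 0.05, 1 fit for whole sections and 1 for each zone. Zones were compared in 1 fit of 16 sums with section as a block. Each SE was derived from the test, as the absolute log2 change over the square root of its F statistic. The procedures were run on simulated counts with a fixed dispersion and, planted changes aside, the same gene fractions in all sections and zones. That simulation lacked the section and zone differences of the data, so it does not test the calls made here. Alternatives were DESeq2 1.42.0, other scalings, no filter, other zone rules and leaving out each section. The gene Pycr3 is listed as Pycrl.

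The 9 genes, the marker and pathway lists and the tests were chosen with earlier results of these data known. Pathway genes are named by rule as the 2 largest rises and falls of each list whose sections did not overlap, and likenesses as the 3 highest correlations. Slc6a8 and Pycrl were named in addition, after their values were seen.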

Additional observations from a re-analysis of the deposited data

Results flagged for a closer look

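The change with ischemia differed between zones, by the test of the difference itself, for 5 of the 9 genes when the outer stripe and for 6 when the inner stripe was set against cortex. Relative to the cortex, the log2 change in the outer stripe was 1.93 for Odc1, 0.40 for Asl, -0.54 for Azin1, -1.54 for Arg2 and -3.29 for Agmat, the last resting on 3 ischemic outer stripe UMIs. In the inner stripe it was 1.27 for Odc1, 0.57 for Asl, 0.56 for Oat, -0.69 for Sat1, -0.83 for Azin1 and -2.44 for Arg2. Those of Odc1 and Arg2 passed in every alternative run. Each of the others lost its call in at least 1 of the fits that left out an ischemic section.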

How the results depend on the processing

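Gatm, Ass1, Asl and Arg2 kept their direction and passed between conditions over whole sections and in all 4 zones under every alternative, as did Agmat over whole sections and in the outer stripe, and Odc1 and Azin1 in the cortex. Over all single-gene values and alternatives, 1021 stayed on their side of the threshold, 72 lost and 45 gained a call and 22 changed sign. With 2 sections a group, a fit that leaves out 1 section takes the lone section to vary like the other group. The zones of the inner medulla and pelvis rest on few spots, and Agmat on few UMIs.

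Leaving out 1 section moved the number of the 9 genes called from 4 to between 4 and 7 in the inner medulla (7 without normal section 1), from 6 to between 3 and 7 for outer stripe against cortex in ischemic sections (3 without either ischemic section) and from 9 to between 4 and 9 for inner stripe against cortex in ischemic sections (5 without ischemic section 1, 4 without ischemic section 2). For the difference in ischemic change it moved from 5 to between 2 and 8 in the outer stripe (8 without either normal section, 2 without either ischemic section) and from 6 to between 2 and 9 in the inner stripe (9 without normal section 2, 3 without ischemic section 1, 2 without ischemic section 2). The outer stripe count was 8 with zones set from each spot alone and 3 without the section term. The causes of these moves were not tested.

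Signs changed only for values that passed on neither side. Without normal section 1 the log2 change of Sat1 was -0.017 over whole sections, -0.074 in outer stripe and -0.019 in inner medulla (0.088, 0.14 and 0.28 without normal section 2), that of Oat in the cortex was -0.010, and inner stripe against cortex in normal sections was -0.87 for Agmat and 0.14 for Oat (1.02 and -0.18 without normal section 2). Without normal section 2, Azin1 in the outer stripe was -0.072 (0.12 without normal section 1) and Odc1 in the inner stripe -0.0014. With zones from each spot alone, the outer stripe was at -0.0013 for Sat1 and -0.013 for Azin1, and Odc1 was at -0.27 in the inner stripe and -0.071 in the inner medulla. Odc1 in the inner stripe was at -0.0045 with DESeq2, -0.0045 with its size factors in edgeR and -0.24 with a podocyte and distal tubule cortex list, under which the change of the ratio to cortex of Gatm was -0.093 for outer stripe and -0.25 for inner stripe. Library totals alone gave 0.077 for Azin1 in the inner stripe and 0.22 for Oat in inner stripe against cortex of normal sections, and a margin between zone scores gave 0.11 for Oat and -0.0086 for Agmat there. An inner medulla list without Cryab, chosen after seeing the data, gave -0.020 for Sat1 in the inner medulla.

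DESeq2 called 3613 genes higher and 4020 lower over whole sections, and leaving out a section gave 6493 to 10877 calls in all. Sections of the 2 groups share replicate numbers, but the correlation of same-number deviations from the group means was 0.159 over 15305 genes, from 2 pairs, which does not show that the numbers pair them. A fit with the replicate number as a block called 8 of the 9 genes over whole sections, with Azin1 passing at a log2 change of 0.25 (edgeR adjusted p = 0.0358), and 10089 genes in all.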
